A study of Mus musculus with 13 samples.

Results

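Immediate early genes are switched on quickly by a signal, without new protein synthesis. Peaks of hybrids between RNA and DNA were examined at 10 of them, Fos, Fosb, Jun, Junb, Jund, Egr1, Ier2, Ier5, Atf3 and Myc, of 37310 genes annotated on the mouse build mm9 (GENCODE vM1). A peak was counted for a gene when it overlapped the gene's annotated bounds extended by 1000 bases on either side. The 10 genes held 174 peaks in the 9 untreated libraries and 1 peak in the 3 libraries digested with RNase H.

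The peaks came from DRIP-seq of N2a cells, a mouse neuroblastoma line. In this assay genomic DNA is cut with restriction enzymes, hybrids are pulled down with the S9.6 antibody, and the recovered DNA is sequenced. Cells of the 3 groups had received scramble siRNA (siScramble), siRNA against DDX1, a putative RNA helicase (siDDX1), or siRNA against EXOSC3, a cap subunit of the RNA exosome, which degrades RNA (siEXOSC3). Each group had 3 untreated libraries from separately seeded plates of the same line and 1 library whose DNA had been digested for 6 h with RNase H, which destroys the RNA strand of hybrids. Knockdown of DDX1 or EXOSC3 cannot be read from DRIP-seq peaks, so the labels were not checked against the targeted genes.

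Groups are named here by sample title. The titles and the names of the peaks disagree in 12 of 12 lists. Peaks carry the name siDDX1 under the title siScramble, the name siEXOSC3 under the title siDDX1, and the name siScramble under the title siEXOSC3. Every direction between groups below therefore holds for the titles only, while counts over all libraries, tests across the 3 groups and the RNase H comparison have the same values under either naming. The untreated lists held 23882 to 42571 peaks and the RNase H lists 3811 to 8034. Relative depth, taken from the peak caller's genome background with the untreated mean set to 1, ranged from 0.784 to 1.86 over the untreated libraries and was 2.30, 1.68 and 1.62 in the RNase H libraries of siScramble, siDDX1 and siEXOSC3. The deepest untreated library was siDDX1 replicate 1, and the untreated list with the fewest peaks was siScramble replicate 1. The plates hold 1 cell line, so p-values measure the spread between plates and library preparations. Of 14 markers of the neuroblastoma and sympathetic lineage, 10 had a peak in at least 1 untreated library. In 9 of 9 there were 6, among them Phox2a and Hand2, while Mycn had a peak in 2. The median share of these 14 genes under peaks was 0%. Of 12 markers of other cell types, 1 had a peak in 9 of 9, Mog. Over all protein-coding genes 26.2% did. A DRIP-seq peak is not an expression level.

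Most of the 10 proteins are transcription factors. FOS and JUN family proteins pair through leucine zippers to form AP-1, which binds the motif TGANTCA. ATF3 is a related zipper protein, EGR1 is a zinc finger factor, MYC pairs with MAX to drive growth genes, and IER2 and IER5 are small nuclear proteins without a known DNA-binding domain. Signals reach these genes through kinases that act on factors bound close to their starts, such as SRF at CArG boxes and CREB at the CRE. RNA that stays paired with its template behind the polymerase, with the other DNA strand displaced, forms an R-loop, and transcripts rich in G over C are known to favor this.

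Because the DNA was cut by enzymes before the pulldown, a peak can end where a fragment ends. The positions and sequences of such ends are shown first. Peaks also ran across cuts, and the part of the cuts in how wide a peak was at these genes was not tested. Of 348 peak ends at the 10 genes in untreated libraries, 187 (53.7%) lay on a cut of BsrGI, EcoRI, HindIII, SspI or XbaI. Over all untreated peaks, 31.6% ± 2.21 (SD, n = 9 libraries) of the ends did, a description with no test. At 9 of the 10 genes, 12 cut positions were a peak end in at least 7 of the 9 untreated libraries, and 8 of the 12 were HindIII sites. A shared end is given below for 9 of the genes, each as 30 bases of the mm9 genome written 5′ to 3′ on the gene's own strand, with the recognition site in capitals. The distance from the annotated gene start is positive into the gene.
Fos, HindIII, −610, 8 of 9 libraries, chr12:86814217-86814246, plus strand: gctgatgtgggcAAGCTTtcctttaggaac
Fosb, XbaI, 1703, 7 of 9 libraries, chr7:19893675-19893704, minus strand: tgctccctgagcTCTAGAcactcagtcctt
Jun, HindIII, −1250, 9 of 9 libraries, chr4:94720147-94720176, minus strand: cctgggagaaccAAGCTTgccacctcttta
Junb, HindIII, −24, 9 of 9 libraries, chr8:87502625-87502654, minus strand: aattcagtataaAAGCTTggggctggggcc
Jund, XbaI, 865, 6 of 9 libraries, chr8:73222490-73222519, plus strand: agagaggcaagaTCTAGAgggaagtaaaga
Ier2, HindIII, 33, 7 of 9 libraries, chr8:87186702-87186731, minus strand: acctgctgctgtAAGCTTgtcgtctgggct
Ier5, HindIII, 1801, 9 of 9 libraries, chr1:156944953-156944982, minus strand: acaggggaaaaaAAGCTTgctgaacttcac
Atf3, HindIII, 4658, 7 of 9 libraries, chr1:193002549-193002578, minus strand: tggccctgttccAAGCTTtgctccttgcat
Myc, HindIII, −1218, 8 of 9 libraries, chr15:61815715-61815744, plus strand: aataaaaggggaAAGCTTgggtttgtcctg

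The cut nearest to a gene start was that of Junb, at −24, beside its TATA motif. At Ier2 a HindIII cut lay 33 bases inside the gene and was a peak end in 7 of 9 libraries. The other end of the Ier2 peaks, an XbaI cut at 2685, was shared by 9 of 9.

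The 250 bases before the start are shown for 3 genes, since at these the cuts separate the promoter from the gene or leave it attached. Capitals mark the motif TATAAA in Fos and Junb. In Ier2 they mark TGACGTCA, the CRE. The Junb sequence spans the cut above, the Ier2 sequence lies before its cut, and the Fos sequence lies on the same fragment as the start of the gene.
Fos, chr12:86814590-86814839, plus strand: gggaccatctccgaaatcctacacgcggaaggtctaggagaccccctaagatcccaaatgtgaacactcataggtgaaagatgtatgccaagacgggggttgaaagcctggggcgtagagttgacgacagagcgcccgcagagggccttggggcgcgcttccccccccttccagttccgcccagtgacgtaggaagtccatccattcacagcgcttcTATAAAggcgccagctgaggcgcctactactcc
Junb, chr8:87502618-87502867, minus strand: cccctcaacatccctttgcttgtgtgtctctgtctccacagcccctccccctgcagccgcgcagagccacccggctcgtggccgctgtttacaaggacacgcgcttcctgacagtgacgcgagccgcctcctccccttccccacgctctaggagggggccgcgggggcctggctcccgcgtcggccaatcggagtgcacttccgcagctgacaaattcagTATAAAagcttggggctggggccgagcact
Ier2, chr8:87186752-87187001, minus strand: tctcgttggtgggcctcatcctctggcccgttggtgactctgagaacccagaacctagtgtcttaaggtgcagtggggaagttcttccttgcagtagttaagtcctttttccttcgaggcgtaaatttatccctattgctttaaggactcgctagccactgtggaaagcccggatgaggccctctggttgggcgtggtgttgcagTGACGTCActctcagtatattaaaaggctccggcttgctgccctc

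**Figure D1:**
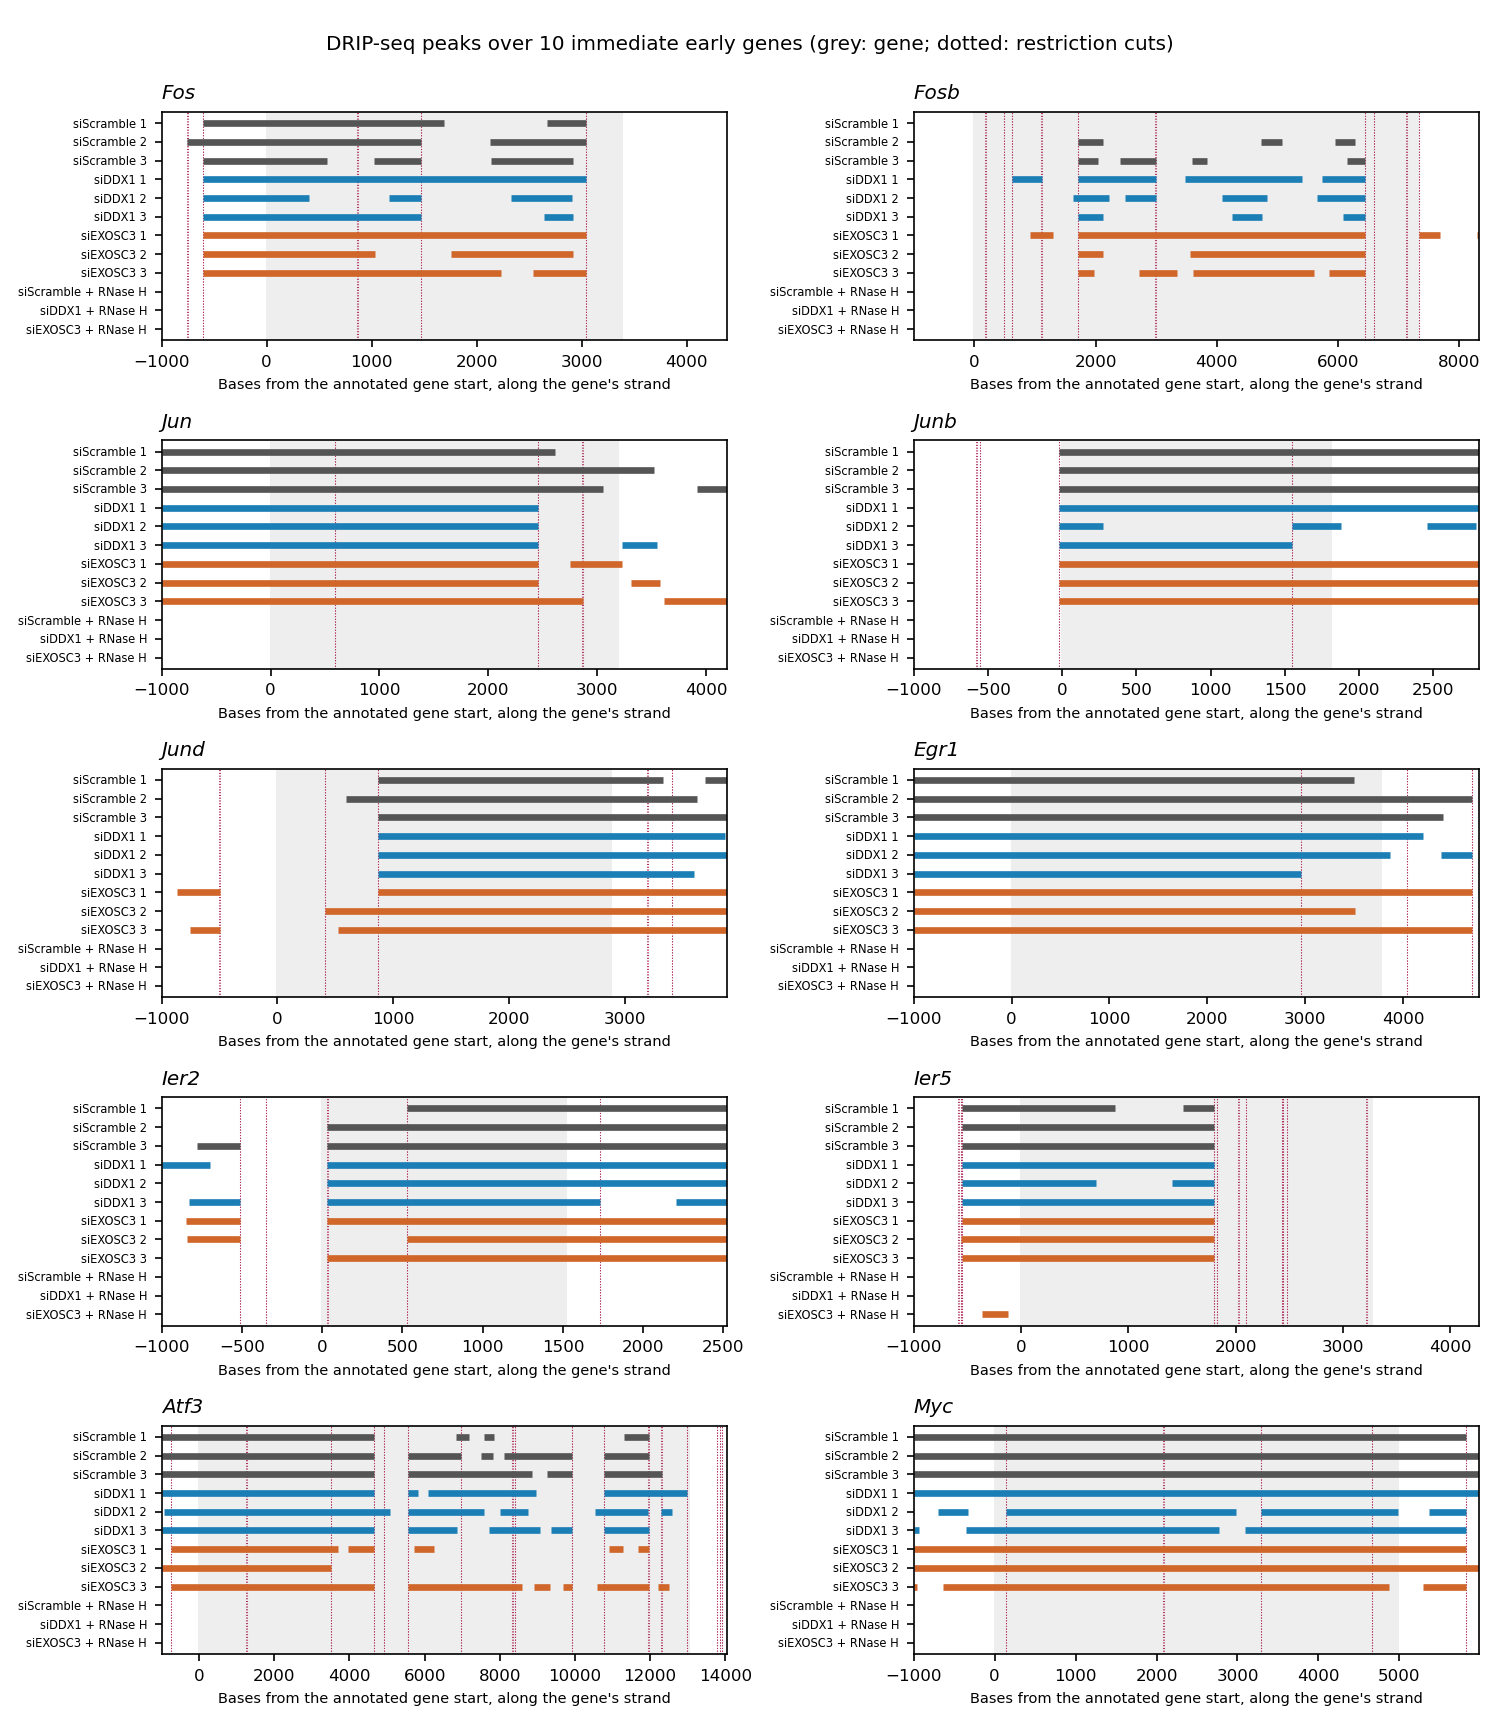
Peaks of 12 libraries (rows, colored by group) over the 10 genes. The x axis is the distance in bases from the annotated start along the gene's strand, grey shading is the gene, dotted lines are restriction cuts, and the window ends 1000 bases beyond either end of the gene. Peaks of different libraries end at the same cuts, and the RNase H rows are empty except for 1 short peak before Ier5.

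Nearly all of these genes carried a peak in every untreated library. A peak was present in 9 of 9 untreated libraries at 9 of the 10 genes, and Fosb had one in 8 of 9, the exception being siScramble replicate 1. Over the annotation, 18.1% of all genes, 26.2% of protein-coding genes and 26.7% of the 7444 protein-coding genes within the length range of the 10 (1522 to 13045 bases) had a peak in 9 of 9. The peaks also covered a large part of most of the genes. The median share of the gene body under peaks over the 9 untreated libraries was at least 50% at 9 of the 10 genes, against 11.4% of the protein-coding genes of like length. The median of these shares was 77.1% for the 10 genes, 0% for coding genes of like length, and 42.7% for the 1984 of the latter that had a peak in 9 of 9. The 10 genes were chosen with earlier results of these data known, so these contrasts describe them and test nothing. Of 46 further immediate early genes, 27 had a peak in 9 of 9, and their median share covered was 24.7%.

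By median share covered the genes ranked Junb, Egr1 and Myc (each 100%), Ier2 (97.8%), Jun (82.0%), Atf3 (72.1%), Jund (69.9%), Fos (64.6%), Ier5 (55.1%) and Fosb (36.1%). The ranges over libraries of Junb (29.6% to 100%), Egr1 (78.3% to 100%), Myc (91.1% to 100%), Ier2 (65.4% to 97.8%) and Jun (77.0% to 100%) overlap, so the order among these 5 lies within their spread. Ier5 (33.3% to 55.1%) lay below Jund (69.9% to 85.8%) in every library, and Fosb (0% to 70.1%) had the widest range beside Junb.

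**Figure D2:**
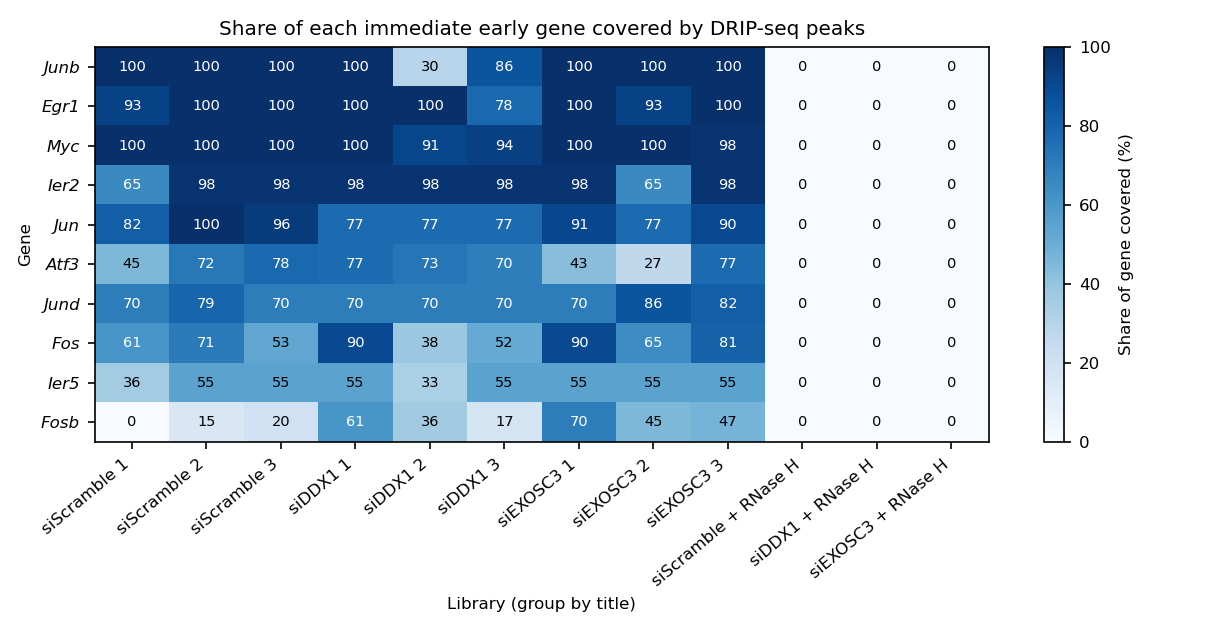
Share of each gene body covered by peaks (color and number, in percent) in each of 12 libraries, with genes ordered by their median over the untreated libraries. All shares in the 3 RNase H libraries are 0, and Fosb is the only row with a 0 in an untreated library.

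Fos and Fosb, 2 members of the FOS family that form AP-1 with a JUN protein, differed in where the peaks lay. At Fos (chr12:86814840-86818223, plus strand, 3384 bases) the share covered was 60.7%, 70.7% and 53.5% in siScramble, 89.9%, 38.2% and 51.8% in siDDX1, and 89.9%, 64.6% and 80.8% in siEXOSC3. The groups overlapped. The fragment from −610 to 868, which holds the start, was covered to 68.7% or more in every untreated library. No peak reached past the SspI cut at 3041, and the last part of the gene, 10.1% of its length, was never covered.

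At Fosb (chr7:19888070-19895394, minus strand, 7325 bases) the share covered was 0%, 15.0% and 20.1% in siScramble, 60.5%, 36.1% and 17.5% in siDDX1, and 70.1%, 45.4% and 47.4% in siEXOSC3. The values labelled siEXOSC3 all lay above those labelled siScramble, and siDDX1 overlapped with both. Here the peaks began inside the gene. The fragment that holds the start, from −1367 to 185, had a peak in 0 of 9 untreated libraries, while the stretch from the XbaI cut at 1703 to the SspI cut at 6452 had one in 8 of 9. Over the 9 libraries the genes whose covered bases varied most like Fosb were Jund (Pearson r = 0.69, n = 9 libraries) and Ier2 (r = 0.69), values that share the depth of each library.

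The JUN family holds the other partners in AP-1. At Jun (chr4:94715725-94718913, minus strand, 3189 bases) the share covered was 82.0%, 100% and 95.5% in siScramble, 77.0% in each siDDX1 library, and 90.9%, 77.0% and 89.9% in siEXOSC3. In each siDDX1 library the peak over the gene ended on the BsrGI cut at 2455. Both fragments from −1250 to that cut were covered completely in 9 of 9 untreated libraries. The Jun window also holds parts of Gm12703 and BC042782, and peaks have no strand, so hybrids of these transcripts cannot be told apart from those of Jun.

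At Junb (chr8:87500811-87502617, minus strand, 1807 bases) the gene was covered completely in every siScramble and siEXOSC3 library. In siDDX1 it was covered to 100%, 29.6% and 85.8%. Of the 535-base fragment just before the cut at −24, which holds most of the promoter printed above, 0.748% lay under a peak in each of the 9 untreated libraries, the overhang of the cut itself. A peak began at the cut in all 9, and no peak was called on the rest of that fragment.

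Jund (chr8:73221638-73224515, plus strand, 2878 bases) was covered to 69.9%, 79.4% and 69.9% in siScramble, 69.9% in each siDDX1 library, and 69.9%, 85.8% and 81.7% in siEXOSC3. Its fragment from 865 to 3194 was covered completely in 9 of 9 libraries and has a GC content of 66.6%. The fragment that holds the annotated start, from −504 to 412, had at most 0.437% of its bases under a peak in any untreated library and a GC content of 47.8%. The Jund window also holds part of Gm11175.

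Atf3 (chr1:192994175-193007219, minus strand, 13045 bases), the longest of the 10, was covered to 45.4%, 72.1% and 78.0% in siScramble, 76.7%, 73.0% and 69.6% in siDDX1, and 42.9%, 27.0% and 77.1% in siEXOSC3. The fragment with the start (−754 to 1261) and the next one (1257 to 3518) were covered completely in 9 of 9 untreated libraries. Downstream of the HindIII cut at 4658 coverage was broken, with up to 6 separate peaks in the window, and siEXOSC3 replicate 2 had no peak there.

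Egr1 (chr18:35020861-35024638, plus strand, 3778 bases) was covered to 92.7%, 100% and 100% in siScramble, 100%, 100% and 78.3% in siDDX1, and 100%, 92.9% and 100% in siEXOSC3. A single fragment of 4104 bases, from a HindIII cut at −1146 to 2958, holds its start and was covered completely in every untreated library. That HindIII cut was a peak end in 9 of 9. The Egr1 window overlaps Gm17507. Ier2 (chr8:87185230-87186751, minus strand, 1522 bases) was covered to 65.4%, 97.8% and 97.8% in siScramble, 97.8% in each siDDX1 library, and 97.8%, 65.4% and 97.8% in siEXOSC3. Only those 2 values occur, since the peaks began at the HindIII cut at 33 or at the XbaI cut at 527. The 387-base fragment across the Ier2 start was covered to at most 1.03%.

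Ier5 (chr1:156943497-156946766, minus strand, 3270 bases) was covered to 35.7%, 55.1% and 55.1% in siScramble, 55.1%, 33.3% and 55.1% in siDDX1, and 55.1% in each siEXOSC3 library. The ceiling of 55.1% is the part of the gene on the 2350-base fragment from −549 to 1801. The rest of the gene is cut into pieces of 10 to 1306 bases, none of which was covered beyond the overhang at 1801. The part of fragment length in this was not tested. Myc (chr15:61816946-61821929, plus strand, 4984 bases) was covered completely in each siScramble library, to 100%, 91.1% and 93.5% in siDDX1, and to 100%, 100% and 97.9% in siEXOSC3. An unbroken peak reached from the HindIII cut at −1218 to that at 5829 or beyond in every siScramble library, in siDDX1 replicate 1 and in siEXOSC3 replicates 1 and 2, and the widest measured 8424 bases.

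Across the 10 genes, the fragment with the annotated start was covered completely (median over 9 libraries) at 7 and to under 2% at 3, which were Fosb, Jund and Ier2. In the first 500 bases after the start the median GC content was 62.1%, against 57.6% for all 22380 protein-coding genes and 65.0% for the 5868 of these with a peak in 9 of 9. The ratio of observed to expected CpG was 0.785 against 0.581 and 0.801. GC skew, the excess of G over C on the coding strand as a share of both, was above 0 at 4 of the 10 genes (Fosb, Jun, Junb and Myc), with a median of −0.0278. Over all protein-coding genes it was above 0 at 14163 with a median of 0.0435, and over those with a peak in 9 of 9 it was above 0 at 4188 with a median of 0.0647. The lowest value of the 10, −0.142, was that of Egr1, and 7.63% of protein-coding genes lay below it. These are descriptions with no test.

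**Figure D3:**
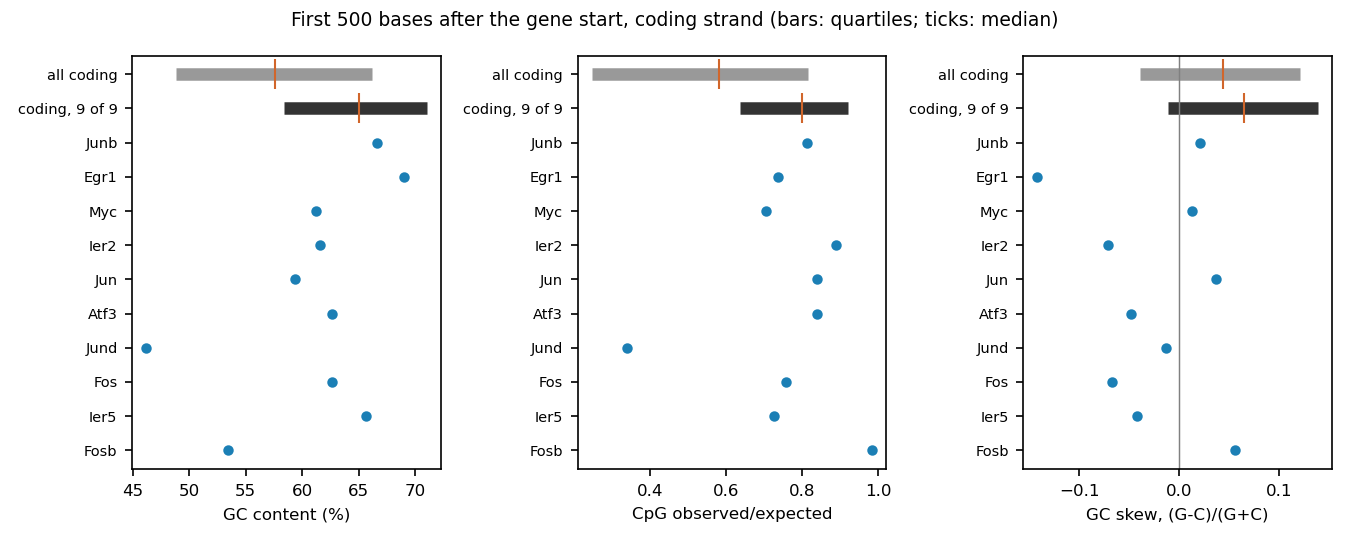
GC content, CpG observed over expected and GC skew of the first 500 bases after the annotated start on the coding strand. Points are the 10 genes, bars are the quartiles and ticks the medians of all protein-coding genes and of those with a peak in 9 of 9 untreated libraries. Points for GC skew lie on both sides of 0, with 6 below, while both background medians lie above it.

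Motifs were searched in the 250 bases before each start, on both strands. TATAAA was found at 3 genes, 33 to 28 bases before the start of Fos, 30 to 25 before Junb and 35 to 30 before Myc, and in 12.3% of protein-coding genes. TGACGTCA (CRE) was found at Ier2 alone, 45 to 38 bases before the start, and in 1.91% of protein-coding genes. The CArG box occurred at Egr1 alone, at 2 places, and in 1.34%. The GC box GGGCGG was found at 6 genes (Fos, Fosb, Jun, Ier5, Atf3 and Myc) and in 39.6% of protein-coding genes. TGANTCA (AP-1) was found in none of the 10 windows and in 6.00%. GC boxes could overlap each other and were then counted separately. A match of letters is not a bound site. Variants of these motifs and sites farther from the start were not searched, so no match does not mean that a gene lacks the element.

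RNase H digestion removed nearly all peaks at these genes. In the RNase H libraries 9 of the 10 genes had no peak in the window, and 8 of the 10 combined peaks in 9 of 9 untreated libraries with none in RNase H, a pattern of 24.7% of protein-coding genes of like length. The exception was Ier5, where the siEXOSC3 RNase H library kept a 244-base peak from −362 to −118, with a fold enrichment over background of 4.75 and 12 reads at its summit. The untreated siEXOSC3 libraries reached 11.6, 12.3 and 13.9 there. Of the 6763 genes with a peak in 9 of 9 untreated libraries, 19% had a peak in at least 1 RNase H library.

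Covered bases in the window fell by 2121 (Ier5) to 9080 (Atf3) on average at the 9 genes other than Fosb, and every untreated library lay above every RNase H library at each of these 9. By the exact two-sided permutation test of the RNase H label within groups, p was 0.0156 at each of the 9, the smallest that the 64 assignments allow, and 0.0409 after Benjamini-Hochberg adjustment over 14869 genes. By that measure 9 of 10 genes fell, against 36.2% of all genes tested. The genes tested include those with a peak in only some libraries, while these 9 had one in every untreated library. The share among all genes with a peak in 9 of 9 was not counted. The contrast therefore does not show the fall to be particular to these genes. Fosb fell by 2583 bases with an exact p of 0.0313 and an adjusted p of 0.0713, which did not pass. The adjusted p of the 9 genes lay between 0.0486 and 0.0608 when 1 untreated library was left out, and for 8 of the 9 libraries no gene passed. Leaving out siScramble replicate 1 was the exception, and all 10 passed then. With 1 library fewer the smallest possible p is 0.0208. The lowest fold called at the genome-wide background in the RNase H lists was 3.85 to 4.23, so a weaker hybrid signal would not appear in them.

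Whether the siRNA changed the extent of the hybrids was tested on covered bases, since this value exists also where no peak was called. None of the 10 genes passed the exact permutation test of the F statistic across the 3 groups after adjustment over 13647 genes (adjusted p = 1 for each, with 0% of all genes called). The smallest p over the 280 splits is 0.00357. A gene at that p passes the adjustment only if many others reach it too, so this test could hardly call any gene. At an unadjusted p under 0.05 there was 1 of the 10, Jund, and 2.89% of all genes. By limma on log2(covered bases + 100) none of the 10 passed either, with adjusted p of 0.871 to 0.997, while 0.308% of all genes did.

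Jund and Fosb were the genes at which a group lay apart from another. Jund had 2656, 3022 and 3013 covered bases in its window in siScramble, 2994, 3013 and 2729 in siDDX1, and 3382, 3470 and 3606 in siEXOSC3. All siEXOSC3 values lay above all others. The mean was 2897 ± 209 (SD, n = 3) in siScramble, 2912 ± 159 in siDDX1 and 3486 ± 113 in siEXOSC3, and the exact permutation p across the groups was 0.0357. The groups no longer separated when the bounds of the gene were not extended.

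Fosb had 0, 1102 and 1471 covered bases in siScramble, 4435, 2643 and 1281 in siDDX1, and 5521, 3326 and 3471 in siEXOSC3. The values labelled siEXOSC3 lay above all of those labelled siScramble, with means of 4106 ± 1228 and 858 ± 765 (SD, n = 3), and siDDX1 overlapped with both at 2786 ± 1582. The exact permutation p was 0.075 across the groups and 0.1 for siEXOSC3 against siScramble, the smallest that 3 against 3 allows. The library with 0 was the list with the fewest peaks, and the highest siDDX1 value was that of the deepest library. With each list reduced to its 23882 strongest peaks, all siEXOSC3 values of Fosb remained above all siScramble values, and so did all siDDX1 values. That number is the full length of the siScramble replicate 1 list, so its value of 0 could not change. Depth was not made equal by this step, and the share of all genes that separated was not counted. The part of depth was not tested.

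Separation of this kind was seen at 2 of the 10 genes for siEXOSC3 above siScramble and at 6.11% of all genes tested. For siEXOSC3 above siDDX1 it was seen at 1 (Jund) and at 4.87% of all genes. None of the 10 showed siDDX1 above siScramble (0.85% of all genes), siScramble above siDDX1 (1.9%), siScramble above siEXOSC3 (3.65%) or siDDX1 above siEXOSC3 (2.41%). Leaving out siDDX1 replicate 1, the deepest library, raised the count for siEXOSC3 above siDDX1 to 5 (Fos, Fosb, Junb, Jund and Myc) and that for siScramble above siDDX1 to 3 (Fos, Junb and Myc). Leaving out siEXOSC3 replicate 2 raised the former to 3. A group with 1 library fewer separates from another more easily by construction. The share of all genes that separated with a library left out was not counted. These raised counts therefore cannot be read as particular to the 10 genes.

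**Figure D4:**
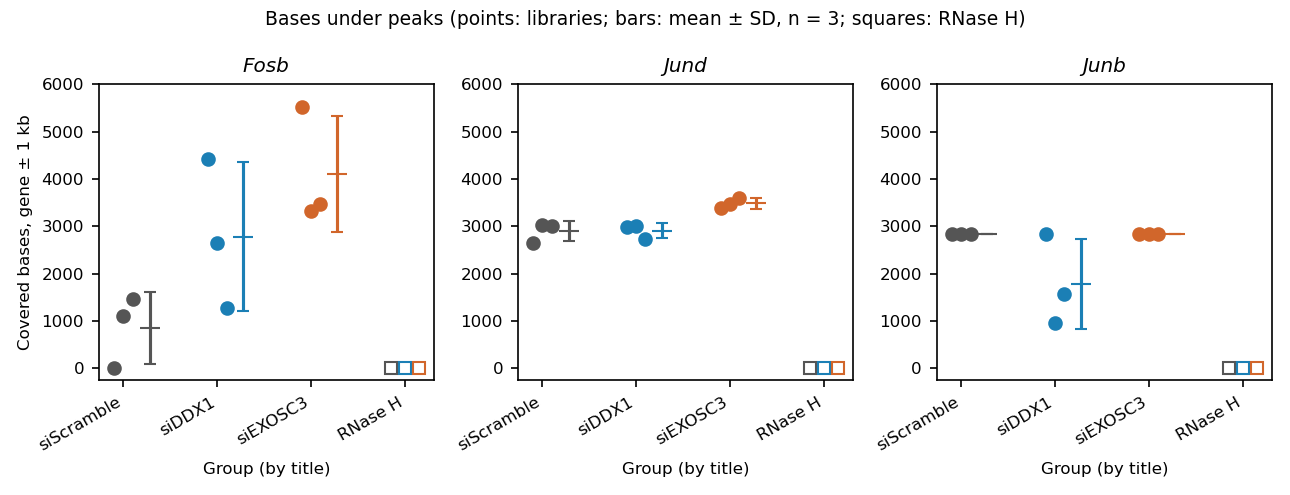
Bases under peaks in the window of Fosb, Jund and Junb (gene extended by 1000 bases) in every library, as points, with the mean ± SD of the 3 untreated libraries per group as bars and the RNase H libraries as squares. The siEXOSC3 points of Fosb and Jund lie above all siScramble points, Junb is the same in all siScramble and siEXOSC3 libraries, and the RNase H squares lie at 0.

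The height of the peaks was compared at the 9 regions, 1 at each gene except Fosb, that were called in all 9 untreated libraries. Fold enrichment as deposited is the ratio of reads at a peak's summit to the local background, with 1 added to each. It was taken here as log2 and centered on each library's median over the 7460 regions called in 9 of 9. Jund stood higher than 99.9% of these regions. Its fold enrichment was 67.4, 82.1 and 77.2 in siScramble, 74.9, 44.9 and 62.0 in siDDX1, and 67.2, 53.0 and 87.0 in siEXOSC3, with 79 to 195 reads at the summit. Egr1 stood higher than 98.5% of the regions, Myc than 98.2%, Jun than 97.8%, Ier2 than 93.8% and Atf3 than 90.7%. Junb (73.4%), Ier5 (71.5%) and Fos (69.6%) were nearer to the middle, with summits of 9 to 36, 15 to 33 and 10 to 33 reads. Egr1 and Junb, both with a median share covered of 100%, had highest folds of 18.4 to 67.6 and of 6.15 to 20.9.

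None of the 9 regions passed limma's F test across the 3 groups after adjustment over the 7460 regions, with adjusted p from 0.157 to 0.963, and 0.228% of all regions did. At an unadjusted p under 0.05 there were 2, Myc and Atf3, and 15.9% of all regions. Of the 27 contrasts between pairs of groups at the 9 regions none passed, with the lowest adjusted p at 0.153. Over all regions 0% were called higher and 0% lower in siDDX1 against siScramble, 0.067% higher and 0.067% lower in siEXOSC3 against siScramble, and 0.214% higher and 0.188% lower in siEXOSC3 against siDDX1. The standard error of a contrast was 0.21 to 0.31 on the log2 scale. Before centering, the median region differed by −0.13 for siDDX1 minus siScramble, 0.07 for siEXOSC3 minus siScramble and 0.21 for siEXOSC3 minus siDDX1 on the log2 scale, and the values here are relative to these shifts.

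Myc had centered log2 folds of 2.19, 2.27 and 2.36 in siScramble, 1.45, 1.25 and 1.74 in siDDX1, and 1.75, 1.15 and 2.06 in siEXOSC3. The values labelled siScramble lay above all others after centering. The share of all regions with such a separation was not counted, so it cannot be read as particular to Myc. In the folds as deposited, siEXOSC3 replicate 3 (50.8) lay above the siScramble libraries (35.4, 47.3 and 49.5). By limma the difference was −0.80 ± 0.23 (SE, adjusted p = 0.300) for siDDX1 minus siScramble and −0.62 ± 0.23 (adjusted p = 0.195) for siEXOSC3 minus siScramble, so neither passed. In covered bases Myc showed no such separation, with the gene covered to at least 91.1% in every untreated library.

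Atf3 had centered log2 folds of 0.26, 1.48 and 1.41 in siScramble, 1.01, 1.51 and 1.61 in siDDX1, and 0.61, −0.38 and 1.10 in siEXOSC3. The groups overlapped. By limma siEXOSC3 minus siDDX1 was −0.93 ± 0.31 (SE, adjusted p = 0.153), which did not pass. The lowest value, siEXOSC3 replicate 2, belonged to the library with the smallest share of Atf3 covered.

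**Figure D5:**
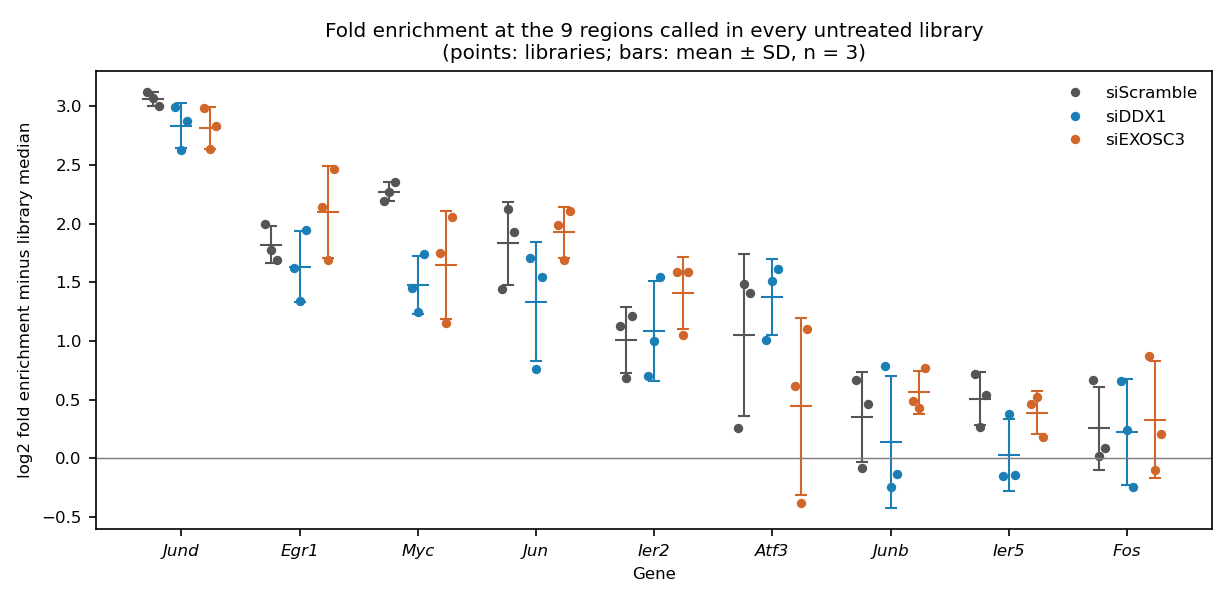
Centered log2 fold enrichment at the 9 regions called in every untreated library, ordered by height. Points are libraries colored by group, bars are the mean ± SD (n = 3). All siScramble points of Myc lie above its siDDX1 and siEXOSC3 points, a separation that was not counted over all regions. The groups of Fos and Junb overlap.

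Other genes of the same response were covered less uniformly. Of 46 further immediate early genes, 39 had a peak in at least 1 untreated library, 27 in 9 of 9 and 7 in an RNase H library, and the median share covered was 24.7%. Dusp4, a phosphatase that dampens MAP kinase signals (100% covered), Id1, an inhibitor of basic helix-loop-helix factors (90.5%), and Ppp1r15a, a subunit of a stress-response phosphatase (88.7%), were the most covered. Egr2 and Egr4, relatives of Egr1, and Npas4, a neuronal activity factor, had no peak in any untreated library. No gene of the list passed the F test across groups. In 21 of the 39 with a peak in an untreated library covered bases fell under RNase H at an adjusted p under 0.05, against 36.2% of all genes tested.

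Without overlap, siEXOSC3 lay above siScramble at 4 of the 46 (6.11% of all genes) and above siDDX1 at 3 (4.87%), siDDX1 lay above siScramble at 1, Plk3 (0.85%), and siScramble above siDDX1 at 1, Zfp36l1 (1.9%). Both separations were seen at Per1, a clock gene, with 8295, 10524 and 9692 covered bases in siScramble, 11661, 8060 and 9517 in siDDX1, and 12615, 11696 and 12790 in siEXOSC3. They were also seen at Gadd45b, a stress-response gene, which had 0 in every siScramble library, 375, 0 and 0 in siDDX1, and 810, 432 and 696 in siEXOSC3. The exact permutation p across groups was 0.118 for Per1 and 0.0357 for Gadd45b, with an adjusted p of 1 for both.

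Of 18 partners of AP-1 and MYC found in the annotation, 10 had a peak in 9 of 9 untreated libraries, with Atf4 (100%), Mxd3 (93.1%) and Mafk (61.6%) the most covered. Batf, Batf3, Maf and Mycl1 had no peak in any untreated library, while Batf3 and Maf each had one in 1 RNase H library. Of 30 kinases, coactivators and factors that act upstream, 19 had a peak in 9 of 9. Map2k2, a MAP kinase kinase, was covered to 80.9%, Crtc2, a coactivator of CREB, to 41.7%, and Rps6ka2, a kinase downstream of MAP kinase, to 30.2%. Elk1, a partner of SRF, had no peak in any untreated library. Without overlap, siEXOSC3 lay above siScramble at Mapk3 among the upstream genes. No gene of either list passed the F test across groups. A peak in at least 1 untreated library was present at 14 of the 18 and 29 of the 30. Covered bases fell under RNase H at 8 of those 14 and 17 of those 29, against 36.2% of all genes tested.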

How the data were processed

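DRIP-seq peak lists of 12 libraries were used, while the input library, which serves as the background in peak calling, was not analysed here as a sample. Per the study's methods and processing notes, the authors aligned reads to mm9 with Bowtie2 2.4.4, sorted them with SAMtools and called peaks in each library separately against input with MACS2 2.2.6. The deposited lists give each peak's position, a display score, its fold enrichment (ratio of summit reads to local background as defined above), and −log10 p and −log10 q. The score was not used. Read counts per gene were not used here, so the authors' own DESeq2 comparison was not repeated.

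Bases covered by peaks were summed over each of 37310 genes (GENCODE vM1) extended by 1000 bases, and fold enrichment was taken per region merged over the untreated libraries. Covered bases were compared across groups by an exact permutation test of F over 280 splits, and RNase H by an exact two-sided permutation test over 64 assignments within groups. Fold was tested with limma 3.58.1 in R 4.3.3. All p-values were adjusted by Benjamini-Hochberg over all genes or regions tested. Other steps used Python 3.11.15, numpy 2.4.6, scipy 1.17.1 and matplotlib 3.10.9, and the code was tested on simulated data. Summit reads were recovered from fold and −log10 p. Sequences are from the mm9 genome.

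Groups follow sample titles. All 10 genes are named, and of the further lists those whose groups did not overlap or with the highest or lowest share covered. Genes and lists were chosen with earlier results of these data known. Alternatives changed the peak threshold, the window, the overlap, the number of peaks, joining of peaks, the test, the scaling, the region filter and single libraries. Precision is limited by 3 libraries a group and by the depth of each list.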

Additional observations from a re-analysis of the deposited data

How the results depend on the processing

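The test across groups of covered bases called none of the 10 genes under any of the 17 alternatives, 1 of them limma in place of the exact test, and limma on fold called none of the 9 regions under any of the 15. The exact test has a smallest p of 0.00357 over 280 splits, so its 0 calls after adjustment carry little weight. At an unadjusted p under 0.05 these were 0 to 3 genes and 2 to 4 regions. Over all genes, the exact test called 0 and limma on covered bases 42. Over all regions limma called 17, with 2 (without siScramble replicate 1) to 49 (nearby peaks joined) over the alternatives and 27 with the replicate block.

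The count of genes whose covered bases fell under RNase H was 9, and 0 within 1000 bases of the gene start (adjusted p = 0.0517 by the exact permutation test). It was 0 to 10 when 1 untreated library was left out, where the smallest possible p rises by construction.

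With −log10 q of at least 5, siDDX1 lay above siScramble without overlap at 1 gene (Fosb) and siScramble above siDDX1 at 1 (Jun). With an equal number of peaks these were again 1 (Fosb) and 1 (Jun), and siEXOSC3 lay above siDDX1 at 2 (Jun and Jund). Without the extension siEXOSC3 lay above siScramble at 1 (Fosb), siScramble above siDDX1 at 1 (Jun) and siEXOSC3 above siDDX1 at 0. Around the gene start siEXOSC3 lay above siScramble at 1 (Jund). The shares of all genes that separated under these settings were not counted.

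With 1 library left out, siDDX1 lay above siScramble at 0 to 1 genes, siScramble above siDDX1 at 0 to 3, siEXOSC3 above siScramble at 2 to 3, siEXOSC3 above siDDX1 at 1 to 5, and siScramble and siDDX1 above siEXOSC3 at 0 to 1 each. Without siScramble replicate 1, siScramble lay above siDDX1 at 2 (Jun and Egr1). Without siDDX1 replicate 3, it did so at 1 (Jun), siDDX1 lay above siScramble at 1 (Fosb) and siEXOSC3 above siDDX1 at 2 (Jun and Jund). Without siScramble replicate 3, siDDX1 lay above siScramble at 1 (Fosb). Without siEXOSC3 replicate 3, both other groups lay above siEXOSC3 at 1 (Atf3). A group with 1 library fewer separates more easily by construction, and the shares of all genes with a library left out were not counted.

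In log2 fold, siDDX1 minus siScramble at Atf3 ranged from −0.072 to 0.54 and turned sign without siScramble replicate 1. For Myc siEXOSC3 minus siDDX1 ranged from −0.029 to 0.42 and turned sign without siEXOSC3 replicate 3. The cause was not tested. Of 535 alternatives for single genes, 451 kept the side of the threshold, and the direction where there was one, 81 lost the call, 1 gained it and 2 turned sign. The lost calls were all of the RNase H comparison, where each of the 9 genes called kept its call in 5 of 14 settings. The tests across groups had no call to lose.

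Deviations of same-numbered libraries correlated at −0.121 to 0.105, and those of differently numbered libraries at −0.194 to 0.153. No pairing by replicate number was seen, though these values cannot tell a weak pairing from none. With the replicate number as a block, 0 of the 10 genes and 0 of the 9 regions were called.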
